A study of Mus musculus with 12 samples.

Results

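H3K27ac, an acetyl mark that chromatin carries where promoters and enhancers are in use, was followed at 10 genes that build, coat or empty lipid droplets (Hilpda, Plin2, Plin3, Plin4, Plin5, G0s2, Pnpla2, Angptl4, Dgat1 and Dgat2), 8 of which are among the 22264 gene symbols with an interval in the table. Members were chosen by name, with earlier results of these same libraries known, so the values below are a description of these libraries and the adjusted p-values only set a difference against the spread between libraries. A row counted as a member's if the deposited table gave it that gene name. This gave 47 of 126464 intervals (enriched regions) for 8 of the 10 genes, and none carried the name Plin5 or Pnpla2. Dgat2 had 24 intervals, Hilpda and Plin4 had 7 each, Angptl4 had 3, Plin2 and G0s2 had 2 each, and Dgat1 and Plin3 had 1 each.

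The cells were 4T1, mouse mammary carcinoma cells able to metastasise, kept for 48 h in vitro with vehicle, with acetate (5 mM, which cells can turn into acetyl-CoA, the donor of acetyl groups for histones), with etomoxir (50 µM, an inhibitor of CPT1, the enzyme that lets long-chain fatty acids into mitochondria), with etomoxir and acetate, with etomoxir and SB204990 (50 µM of each, SB204990 being an inhibitor of ATP citrate lyase, which makes acetyl-CoA from citrate), or with etomoxir, SB204990 and acetate. As whole cultures were assayed, fewer cells with a mark and less mark per cell cannot be told apart. Every group was the same line, with no genetic change named, and SB204990 was never given without etomoxir. Each treatment had 2 libraries, called set 1 and set 2 after a suffix of the library names whose meaning the labels do not give. Nothing says whether they came from separate cultures, so all p-values measure only the spread between these libraries.

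Lipid droplets store fatty acids as triglyceride under a coat of perilipins. DGAT1 and DGAT2 carry out the last step of triglyceride synthesis, and ATGL (encoded by Pnpla2) begins its breakdown, which HILPDA and G0S2 restrain. ANGPTL4 is secreted and inhibits lipoprotein lipase, which frees fatty acids from lipoproteins outside the cell. Hilpda, Plin2 and Angptl4 are textbook targets of the fatty acid-activated PPAR receptors, and Hilpda, Plin2 and Angptl4 are also induced by hypoxia.

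The libraries held between 7179165 and 16676442 reads in intervals. Values are reads multiplied by a factor that the authors set from human chromatin added to each sample (spike-scaled reads), and this factor ranged from 0.398 to 1. The factor was exactly 1 in a single library of each set, etomoxir + acetate in set 1 and etomoxir + SB204990 in set 2. The paper states that factors were normalised to the highest one, but not whether this was done within each set. If it was, levels of set 1 and set 2 are not on a shared scale. The etomoxir + SB204990 pair stood apart from the others: set 2 had the fewest reads and a factor of 1, against a factor of 0.398 in set 1, and every test borrows its spread in part from this pair. Without set 1 or set 2 of that pair, the genes called for etomoxir averaged over both acetate conditions went from 58 to 6278 or 6402, and those called for etomoxir + acetate vs. acetate came to 8367 of 19553 or 8539 of 19291, so a member's call in these fits stands beside that background. Epithelial markers gave 28.4 to 67.7 spike-scaled reads per kb over the libraries (4 of 6 markers with an interval, among them Krt8, Cdh1 and Epcam; Krt7 and Krt18 had none). The list of 4 adipocyte markers gave 9.74 to 33.5 reads per kb, lowest in etomoxir + SB204990 set 1 and highest in etomoxir + acetate set 1. All 4 had an interval and none was at 0. Among leukocyte markers, Cd68 gave 58.6 reads per kb on average, Ptprc 25.2 and Cd3e 12.9, and of 3 hepatocyte markers only Apoa1 had one, with 29.2 reads per kb. Cd68, Ptprc and Cd3e had 1 interval each, named by nearest gene, and other genes in these intervals were not looked up. All libraries came from the 4T1 line in culture, and the part of other cells in the results was not tested.

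The start sites of Hilpda and Plin2 both lay inside intervals that gained signal, so the 250 bases before each start are shown first (RefSeq, build GRCm38.p6). Capitals mark matches to 3 searched motifs, on both strands: the hexamer AGGTCA, a direct repeat of AGGTCA with 1 base between the copies and at most 2 mismatches (the form bound by PPAR with RXR), and ACGTG, the core of the hypoxia response element. Of 32851 promoter windows of 300 bases, 16.3% held the hexamer, 3.86% the direct repeat and 19.6% ACGTG. The hexamer can lie inside the direct repeat.
Hilpda, chr6:29272238-29272487, plus strand: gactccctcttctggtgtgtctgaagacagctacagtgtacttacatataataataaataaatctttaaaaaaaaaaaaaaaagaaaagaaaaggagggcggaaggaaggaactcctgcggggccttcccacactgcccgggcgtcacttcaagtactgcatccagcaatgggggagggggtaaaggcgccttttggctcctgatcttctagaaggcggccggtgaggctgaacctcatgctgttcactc
Plin2, chr4:86670060-86670309, minus strand: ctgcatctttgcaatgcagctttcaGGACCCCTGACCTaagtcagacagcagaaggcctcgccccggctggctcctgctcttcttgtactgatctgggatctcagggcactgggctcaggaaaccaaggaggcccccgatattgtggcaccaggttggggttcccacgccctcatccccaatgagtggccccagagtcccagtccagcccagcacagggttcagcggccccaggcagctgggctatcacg
The Plin2 window held 1 direct repeat with 2 mismatches, read on the opposite strand and 225 bases before the start site, and its hexamer lay within it. It also held 2 overlapping matches to ACGTG, 1 on each strand, across the start site and partly beyond the bases printed. The first Hilpda window held none of these letters, and a second window for a start site further into the gene held 1 ACGTG, 43 bases before that start. Windows were found for 7 of the 10 members (9 windows). Among the others, each of the 2 Plin5 windows held 1 hexamer, at different positions, and G0s2, Pnpla2, Plin3 and Plin4 held no match.

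Away from the promoters, the direct repeat with at most 1 mismatch was looked up in 4 intervals picked after their values had been seen. The interval upstream of Hilpda (chr6:29241093-29251303), which had the highest averaged etomoxir difference of the intervals named for members, held 2 matches. They are shown with their flanks, the match in capitals, from the GRCm38 genome.
Hilpda upstream site 1, chr6:29245558-29245617, plus strand: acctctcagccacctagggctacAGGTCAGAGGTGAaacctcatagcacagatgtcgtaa
Hilpda upstream site 2, chr6:29250206-29250265, plus strand: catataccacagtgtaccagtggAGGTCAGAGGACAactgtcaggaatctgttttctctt
Site 1 lay 26907 bases before the Hilpda start in sequence not marked as a repeat, whereas site 2 lay in sequence that the genome file marks as repetitive. Such a match was common: 22.9% of 3386 intervals within 20% of this length held at least 1. The interval over the Angptl4 start held 2, of which 1 (AGGTCAAAGGACA, chr17:33774404-33774416, minus strand, within an exon of Angptl4) was outside marked repeats, and 38% of 1457 intervals of like length held at least 1. The intervals over the Hilpda and Plin2 starts held 1 each, with 32.2% of 2158 and 70.2% of 312 intervals of like length holding at least 1. A match is a run of letters, and binding was not measured.

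Of the gene sums, that of Hilpda had the highest gain with etomoxir averaged over both acetate conditions. Summed over its 7 intervals, the spike-scaled signal was 564 and 608 reads with vehicle (set 1 and set 2), 807 and 783 with acetate, 1169 and 1078 with etomoxir and 1837 and 1700.2 with etomoxir + acetate. With SB204990 added, it was 970.2 and 1006 with etomoxir and 1419.7 and 1626 with etomoxir + acetate. Each library with etomoxir lay above both libraries of the matching group without it, with no overlap.

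The Hilpda mean went from 586 ± 31.1 reads (SD, n = 2 libraries) with vehicle to 1124 ± 63.9 with etomoxir. The difference was a log2 fold change of 0.94 ± 0.17 (SE, n = 2 libraries per group) for etomoxir vs. vehicle and 1.15 ± 0.17 for etomoxir + acetate vs. acetate. The medians over all genes were 0.14 and 0.43. Averaged over both comparisons, the Hilpda difference came to 1.05 ± 0.12 (limma, Benjamini-Hochberg adjusted p = 2.61e-05). It was 1.12 between set 1 libraries and 0.97 between set 2 libraries. All 4 of 4 same-set pairs were higher, though the fit did not take the sets as pairs. The median of all 19458 genes tested moved by 0.29, and Hilpda ranked at place 29 from the highest. Of these comparisons, that with acetate passed on its own (adjusted p = 0.00197) and etomoxir vs. vehicle did not (0.0532, limma). The former was lost without either acetate or either etomoxir + acetate library (adjusted p up to 0.264). The latter fell below 0.05 when any of the 4 libraries with SB204990 was left out, the lowest being 5.98e-05, and in 4 of 11 other settings, namely library-total scaling (0.81, limma adjusted p = 0.0273), a mean of at least 50 reads, the libraries of the comparison alone and the set as a block. With SB204990, Hilpda differed by 0.75 ± 0.17 vs. vehicle, and by 0.70 to 0.81 in fits that left out a library. This did not pass (limma adjusted p = 0.342), but it did by library total (0.98, adjusted p = 0.00330) and with the set as a block (under 0.05). Hilpda rose by 0.93 ± 0.17 vs. acetate (limma adjusted p = 0.0352). That call held in 4 of 12 fits without a library, those leaving out vehicle or etomoxir + SB204990. These comparisons share their control libraries with those of etomoxir. The averaged call held without each of the 12 libraries. It was lost with median-of-ratios scaling, which sets the middle gene of each library equal (0.70, adjusted p = 0.775), and when read shares were multiplied by the factor (adjusted p = 0.967).

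**Figure D1:**
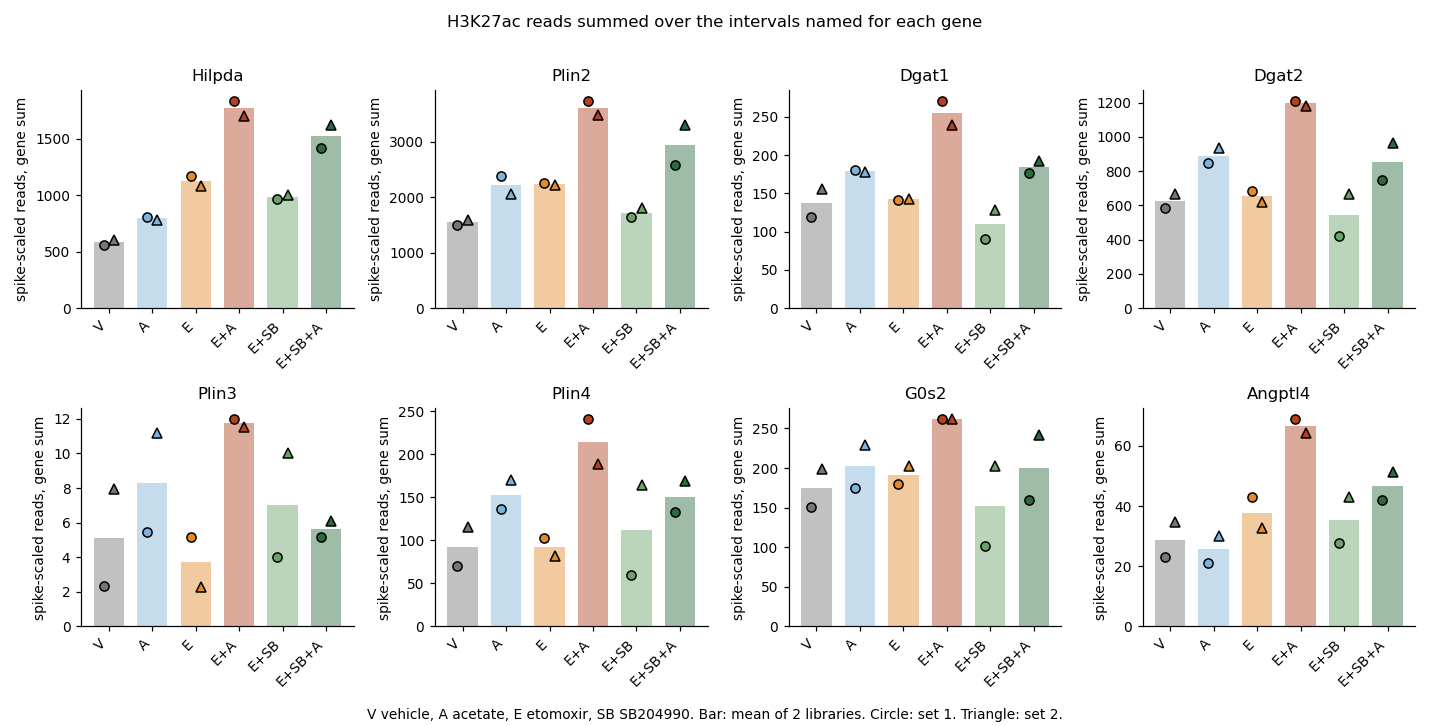
Spike-scaled H3K27ac reads summed per gene (vertical axis) in the 6 treatments (horizontal axis), with a bar for the mean of 2 libraries, a circle for set 1 and a triangle for set 2. Hilpda lies between 564 and 608 reads with vehicle and between 1169 and 1078 with etomoxir, while Dgat1 has means of 137 and 142 reads.

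Of the Hilpda intervals tested, the averaged gain was highest in the one farthest from the gene, and this difference between intervals was not tested. That interval carries the name Hilpda only through assignment to the nearest gene. The intergenic interval of 10211 bp upstream, 31395 to 21185 bases before the start site, gave 167 and 174 reads with vehicle, 299 and 237 with acetate, 494 and 437 with etomoxir and 743 and 695 with etomoxir + acetate. It gave 439 and 412 reads with etomoxir + SB204990 and 596 and 716 with all 3 agents. The lowest library with etomoxir (412 reads) was above the highest without it (299 reads), with or without acetate.

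This upstream interval rose by 1.44 ± 0.20 for etomoxir vs. vehicle (adjusted p = 4.22e-09) and by 1.43 ± 0.20 for etomoxir + acetate vs. acetate (adjusted p = 3.89e-09), in the limma fit over 63903 intervals. The mean with etomoxir was 2.73-fold that with vehicle. It also rose with etomoxir + SB204990 vs. vehicle (1.31 ± 0.20, adjusted p = 6.40e-07) and with all 3 agents vs. acetate (1.29 ± 0.20, adjusted p = 5.55e-07). In the order given, the medians over all intervals were 0.15, 0.50, -0.14 and -0.013. All 4 calls held without each of the 12 libraries. They were lost without an intensity trend in the spread and with read shares multiplied by the factor, where no interval passed in any of these 4 comparisons. With median-of-ratios scaling the averaged difference was 1.09 (adjusted p = 0.0264) but none of the 4 single comparisons passed (adjusted p from 0.0950 to 0.977). Scaled to the library total, the average was 1.17 (adjusted p = 3.00e-06). The difference between the etomoxir effects with and without acetate was -0.01 ± 0.28, whose error leaves room for a sizeable difference.

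The interval over the Hilpda start (14109 bp, chr6:29266935-29281043, which also holds the start of Fam71f2) gave 341 and 344 reads with vehicle, 432 and 453 with acetate, 563 and 535 with etomoxir and 896 and 829 with etomoxir + acetate. It rose by 0.82 ± 0.13 averaged over both acetate conditions (limma adjusted p = 1.21e-06), a call lost with median-of-ratios scaling (0.47, adjusted p = 0.884). A weaker interval between both, 16996 to 11435 bases before the start, gave 41.1 and 61.8 reads with vehicle and 81.7 and 79.6 with etomoxir. It rose by 0.91 ± 0.20 on average (adjusted p = 0.00268), but the call was lost without vehicle set 1, acetate set 1 or any of the 4 etomoxir and etomoxir + acetate libraries (adjusted p up to 0.331). The 4th Hilpda interval tested did not pass, and 3 of the 7 averaged under 10 reads and were not tested.

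**Figure D2:**
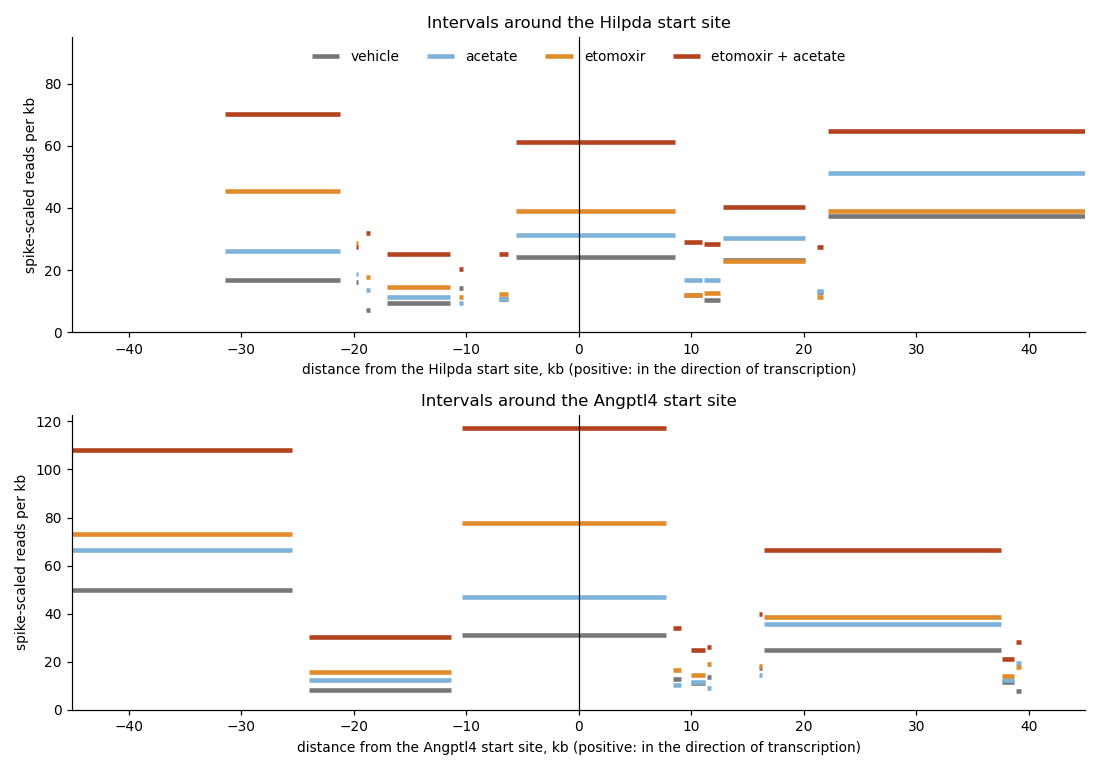
Mean spike-scaled reads per kb (vertical axis) of each interval, drawn as a horizontal line over its extent, against distance in kb from the start site of Hilpda (top) and Angptl4 (bottom), in 4 treatments. Upstream of Hilpda the level went from 16.7 reads per kb with vehicle to 45.6 with etomoxir, and the interval past 22 kb, assigned to Fam71f1, went from 37.3 to 38.9, and from 51.1 with acetate to 64.7 with etomoxir + acetate.

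Angptl4 came out differently depending on which rows counted as its own. The 3 rows with its name were weak intervals of 378 to 1273 bp beyond the end of the gene, with 35 to 75 reads per library in all. Their sum was 22.9 and 34.9 with vehicle, 21.1 and 30.2 with acetate, 42.9 and 32.6 with etomoxir, 69 and 64.3 with etomoxir + acetate, 27.9 and 43 with etomoxir + SB204990, and 42.0 and 51.2 with all 3 agents. The groups with vehicle and etomoxir overlapped. For etomoxir + acetate vs. acetate, without overlap, the difference was 1.36 ± 0.39, above that of the Hilpda sum, and did not pass (limma adjusted p = 0.151) except without either etomoxir + SB204990 library (0.00189 at the lowest) or with those 4 libraries fitted alone, where 14265 of 19776 genes passed. The averaged difference was 0.88 ± 0.28 and did not pass (limma adjusted p = 0.181), except without either etomoxir + SB204990 library and when the 4 groups were fitted alone (0.00319, with 11814 of 19389 genes passing there).

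The start site of Angptl4 lay in an interval of 18161 bp (chr17:33774033-33792193) that the table assigns to the noncoding 4931413I07Rik. Angptl4 is the only protein-coding gene whose start lies in it, and looking it up by position was decided after the files had been seen. This interval gave 509 and 620.4 reads with vehicle, 869 and 832 with acetate, 1347 and 1469 with etomoxir and 2095 and 2165 with etomoxir + acetate. With SB204990 it gave 1151 and 1184 reads in etomoxir and 1612 and 2339 in etomoxir + acetate. At 74.3 reads per kb on average it was the densest of the members' intervals. Each library with etomoxir was above all 4 without it.

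The interval over the Angptl4 start rose by 1.32 ± 0.18 both for etomoxir vs. vehicle (adjusted p = 1.71e-09) and for etomoxir + acetate vs. acetate (adjusted p = 9.61e-10, limma). The fold of means was 2.49 and 2.50. Over all intervals, the median log2 fold changes of these comparisons were 0.15 and 0.50. With SB204990 it rose by 1.05 ± 0.18 vs. vehicle (adjusted p = 2.10e-05, lost only without vehicle set 1 among 12 fits that left out a library, at 0.482) and by 1.19 ± 0.18 vs. acetate (adjusted p = 2.63e-07). Averaged, it was 1.33 in set 1 and 1.31 in set 2. The averaged call (adjusted p = 5.84e-22) was lost with median-of-ratios scaling (0.97, adjusted p = 0.102), without an intensity trend in the spread and with read shares multiplied by the factor (adjusted p up to 0.995), and the value scaled to the library total was 1.05 (adjusted p = 8.96e-07). None of its 4 single comparisons passed with median-of-ratios scaling (adjusted p from 0.368 to 0.977), without the intensity trend or with read shares multiplied by the factor. The etomoxir effect differed by 0.00 ± 0.25 with and without acetate.

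Plin2, the main droplet coat protein of cells other than adipocytes, moved less. Its gene sum was 1508 and 1594 reads with vehicle, 2383 and 2063 with acetate, 2260 and 2217 with etomoxir, 3744 and 3494.5 with etomoxir + acetate, 1641 and 1809 with etomoxir + SB204990, and 2585 and 3301 with all 3 agents. Nearly all of it (97.04%) came from an interval of 45289 bp (chr4:86651404-86696692) in which Plin2 is the only coding gene to start. Etomoxir libraries were above vehicle, and etomoxir + acetate above acetate, without overlap.

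The Plin2 gene sum rose by 0.62 ± 0.12 on average (limma adjusted p = 0.0162), by 0.62 in each set and in 4 of 4 pairs. Neither comparison passed alone (0.53 ± 0.17 for etomoxir vs. vehicle and 0.71 ± 0.17 for etomoxir + acetate vs. acetate, the latter passing without either etomoxir + SB204990 library, at 0.00477 at the lowest, and in 3 of 11 other settings, namely the set as a block, the largest interval, and the libraries of the comparison alone, where 14265 of 19776 genes passed). The averaged call was lost in 7 of 12 fits that left out a library, namely vehicle set 1 and any acetate, etomoxir or etomoxir + acetate library (adjusted p up to 0.263), and it was also lost with 5 of 11 other settings, the value by library total being 0.35 (adjusted p = 0.0510) and by median of ratios 0.27 (adjusted p = 0.998). Its start-site interval alone gave the same 0.62 with an adjusted p of 0.000241, or 0.0531 without etomoxir + acetate set 1. With SB204990, Plin2 differed from vehicle by 0.15 ± 0.17 and, with acetate, from acetate by 0.40 ± 0.17, and neither passed.

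Counted over the gene sums, 7 members averaged at least 10 reads and were tested, Plin3 falling below. None of the 7 passed for etomoxir vs. vehicle, where 0.0154% of all genes passed upward (limma, with 2 members and 133 genes at an unadjusted p under 0.05, and no member by edgeR). One passed for etomoxir + acetate vs. acetate (Hilpda, background 0.0771%) and 2 for the average (Hilpda and Plin2, background 0.298%). None passed for etomoxir + SB204990 vs. vehicle (background 0.00514%, with 1 member at an unadjusted p under 0.05), and 1 passed for all 3 agents vs. acetate (Hilpda, background 0.0463%). The median of the 7 for the average was 0.28, beside 0.29 over all genes. By single intervals, 29 of the 47 were tested. There, 4 rose on average (0.419% of all intervals), 1 for etomoxir vs. vehicle (0.0563%), 4 with acetate (0.155%), 1 for etomoxir + SB204990 vs. vehicle (0.0313%) and 1 for all 3 agents vs. acetate (0.0423%). These 4 were the 3 Hilpda intervals and the Plin2 start interval, and the single one was always the upstream Hilpda interval.

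**Figure D3:**
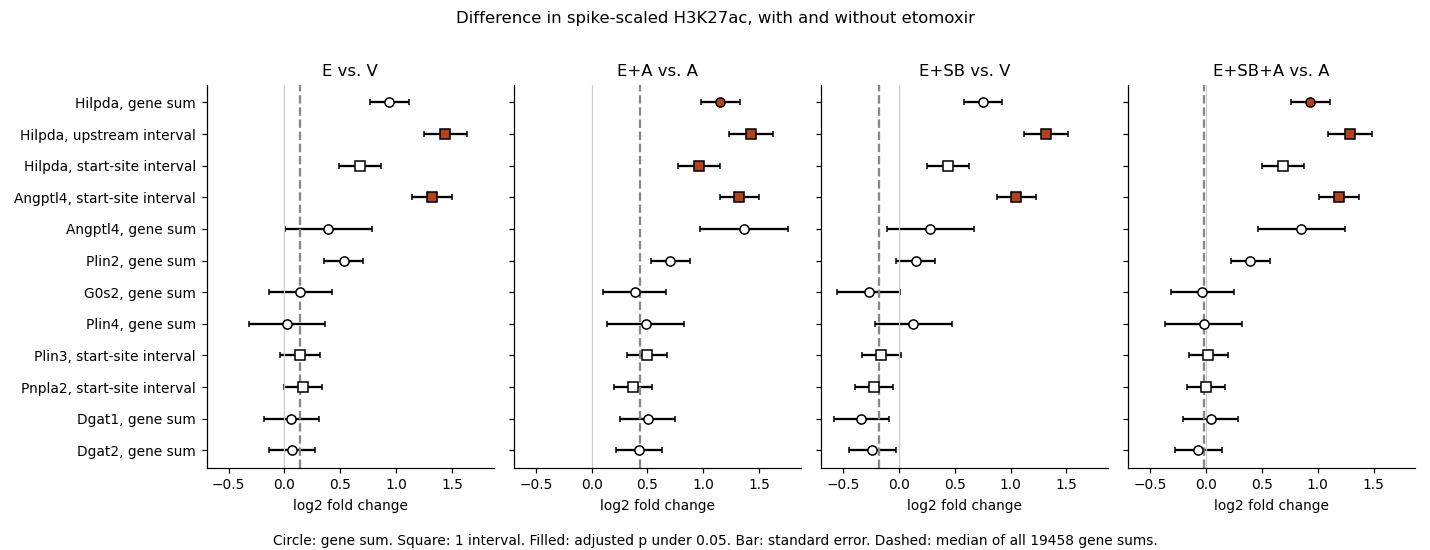
Log2 fold changes of spike-scaled H3K27ac with their standard errors (horizontal axis) for gene sums (circles) and single intervals (squares) of the members (vertical axis) in 4 comparisons, filled where the adjusted p is under 0.05, with the median of all gene sums dashed. The upstream Hilpda interval and the Angptl4 start interval lie between 1.05 and 1.44 in all 4 panels, and the error bars of Dgat1, Dgat2, Plin4 and G0s2 reach the dashed lines.

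Because the factor moves all genes of a library together, the same intervals were also read as a share of the library, with no spike-in. In RPM (reads scaled to an equal total of reads in intervals per library), the Hilpda sum was 78.4 to 82.6 in the 4 libraries without etomoxir (median 79.7) and 132 to 181 in the 8 with it (median 142). The upstream interval was 22.6 to 29.7 without and 53.8 to 82.1 with etomoxir. The interval over the Angptl4 start was 74.7 to 86.3 without and 153 to 215 with it. Plin2 was 207 to 237 without and 252 to 306 with it. Hilpda and Plin2 were the 2 of 7 members that did not overlap in this way, as did 1.59% of all genes. Of the 15 intervals described, the 3 Hilpda intervals, the Plin2 start interval and the Angptl4 start interval did not overlap, as did 1.05% of all intervals. Some of the 15 are described because they passed for etomoxir in these same libraries, so the choice of intervals partly fixes this count and nothing is read from it.

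**Figure D4:**
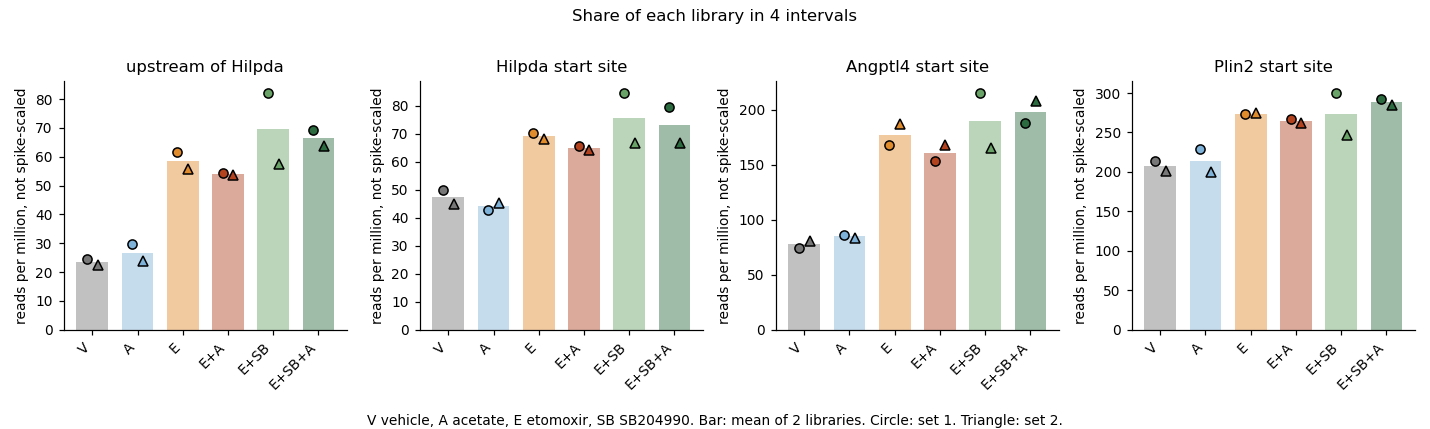
RPM without spike-in scaling (vertical axis), in 4 intervals over the 6 treatments (horizontal axis), with a bar for the mean, a circle for set 1 and a triangle for set 2. Upstream of Hilpda the 4 libraries without etomoxir lie between 22.6 and 29.7 and the 8 with it between 53.8 and 82.1.

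The other droplet coat genes gave no call for etomoxir. Plin4 was a weak locus: its gene sum was 70.6 and 114.9 reads with vehicle, 136 and 170 with acetate, 102 and 81.9 with etomoxir, and 241 and 188 with etomoxir + acetate. Its averaged difference was 0.25 ± 0.24, with 0.68 in set 1 and -0.17 in set 2, so the sets moved in opposite directions. For etomoxir + acetate vs. acetate it was 0.49 ± 0.34, which passed without either etomoxir + SB204990 library (0.0496 at the lowest), as did 8367 or 8539 of all genes. For etomoxir + SB204990 vs. vehicle, Plin4 was at 0.13 ± 0.34 and did not pass. It was at 0.86 without set 1 of that pair and at -0.59 without set 2, so the direction depended on which library was left. The largest of its 7 intervals (3368 bp) also overlaps Hdgfl2. Plin3, a coat protein found in most cells, had 1 named interval of 295 bp with 4 to 13 reads. Its start site lay in an interval of 39581 bp assigned to Ticam1, where 3 coding genes start, and that interval gave 1316 reads on average and a difference of 0.32 ± 0.12 (limma adjusted p = 0.192) beside an interval median of 0.33. Plin5 had no interval, and the nearest, which belongs to Plin4, lay 7391 bp from its start. A region with no interval is one where no peak was called, which puts no value on its signal.

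Of the genes that act on lipolysis, G0s2 had its nearest interval 989 bp from its start and inside Lamb3. Its sum was 151 and 199 reads with vehicle and 180 and 203 with etomoxir, and overlapped between them. The averaged difference was 0.26 ± 0.20 (limma adjusted p = 0.300). For etomoxir + SB204990 vs. vehicle, G0s2 was at -0.27 ± 0.28 and did not pass. It was at -0.76 without set 2 of that pair and at 0.22 without set 1, so the direction depended on which library was left. Pnpla2, which encodes the lipase itself, started in an interval of 66946 bp assigned to Cracr2b, where 9 coding genes start. That interval gave 2664 and 2800.0 reads with vehicle and 3109 and 3023 with etomoxir, a difference of 0.27 ± 0.12 on average (adjusted p = 0.210), and reads in it cannot be assigned to 1 gene.

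The triglyceride synthesis genes stayed close to the middle of all genes. Dgat1, with 1 interval over its start, gave 119 and 156 reads with vehicle, 180 and 178 with acetate, 142 and 143 with etomoxir, and 271 and 239 with etomoxir + acetate. Its averaged difference was 0.28 ± 0.17 (limma adjusted p = 0.227). Dgat2 gave 583 and 666 reads with vehicle, 849 and 933 with acetate, 687 and 620.2 with etomoxir, and 1211 and 1183 with etomoxir + acetate, with an averaged difference of 0.25 ± 0.15 (adjusted p = 0.216). Of the intervals named for Dgat2, 15 of 24 overlap Uvrag, its neighbour, and the strongest, of 9130 bp, is one of them and made up 41.6% of the sum. The interval over the Dgat2 start (2498 bp) gave 0.23 ± 0.18. With the 4 groups without SB204990 fitted alone, Dgat1, Dgat2 and Angptl4 passed too (5 of 7 members), along with 11814 of 19389 genes. For etomoxir + acetate vs. acetate, Dgat1 (0.50 ± 0.25) and Dgat2 (0.43 ± 0.21) passed without either etomoxir + SB204990 library, at 0.0366 and 0.0373 at the lowest, in the same fits that called 8367 of 19553 and 8539 of 19291 genes.

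On the spike-in scale acetate raised nearly all members, as it did nearly all genes, while with median-of-ratios and library-total scaling no member passed and Hilpda, G0s2 and Angptl4 turned below 0. Averaged over the 3 comparisons of acetate with its matching group, 6 of 7 gene sums rose and Angptl4 did not pass (0.36 ± 0.23), while 88.2% of all genes rose. The members' median was 0.66 beside 0.63 over all genes, from 0.37 ± 0.16 for G0s2 to 0.85 ± 0.20 for Plin4. In 23 of 29 intervals the signal rose, beside 77.2% of all intervals. Split by comparison, no gene passed for acetate vs. vehicle (limma, with 4 of 7 members and 8341 genes at an unadjusted p under 0.05), 5 members passed for etomoxir + acetate vs. etomoxir (78.2% of all genes) and 4 with SB204990 in both groups (57.7%). Under the median of ratios Hilpda, G0s2 and Angptl4 were at -0.072, -0.27 and -0.27. With read shares multiplied by the factor, all 7 members stayed above 0 but none passed, nor did any of 19671 genes (limma, 617 at an unadjusted p under 0.05), whose median was 0.43. The call for G0s2 held in 5 of 12 fits that left out a library, and was lost without vehicle set 1, acetate set 2, etomoxir set 1, either etomoxir + acetate library, etomoxir + SB204990 set 1 or set 2 of all 3 agents (adjusted p up to 0.182). It also held in 5 of 10 other settings.

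Adding SB204990 to etomoxir changed no member past the threshold. Without acetate, the gene sums differed by -0.41 to 0.11 (limma, 1 of 7 members at an unadjusted p under 0.05) and the median over all genes was -0.33. With acetate, they differed by -0.51 to -0.22 (again 1 of 7) and the median was -0.46. For the upstream Hilpda interval the difference was -0.13 ± 0.20 without and -0.14 ± 0.20 with acetate, and for the Angptl4 start it was -0.27 ± 0.18 and -0.13 ± 0.18. The median over all intervals was -0.30 without and -0.51 with acetate. None of the interactions of etomoxir with acetate passed for the 7 members (limma, none at an unadjusted p under 0.05 either, beside 31 of all genes), the largest being 0.97 ± 0.55 for Angptl4 (adjusted p = 0.774).

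Around the members, 65 other genes of the same pathways were followed, of which 50 had an interval and 46 were tested. For etomoxir on average, 2 of 46 rose and none fell (16 at an unadjusted p under 0.05), beside 0.298% of all genes that rose and 5342 of 19458 at an unadjusted p under 0.05. One was Hsd17b11, a dehydrogenase that sits on droplets, with 243 and 284 reads with vehicle and 403 and 415 with etomoxir and a difference of 0.79 ± 0.15 (limma adjusted p = 0.00917). The other was Agpat3, an acyltransferase of glycerolipid synthesis, with 639 and 858 reads with vehicle and 1138 and 1004 with etomoxir and a difference of 0.67 ± 0.15 (adjusted p = 0.0407). Under the median of ratios they were 0.44 and 0.32 and did not pass. By library total, Hsd17b11 was at 0.52 and passed (limma adjusted p = 0.00147), and Agpat3 was at 0.40 and did not (0.0537). By list, 1 of 12 tested genes rose among coat and morphology genes, 1 of 12 among synthesis genes, 0 of 7 in lipolysis and 0 of 15 around lipoprotein lipase and fatty acid entry (limma, with 2 of 7 and 5 of 15 at an unadjusted p under 0.05). The list medians were 0.41, 0.31, 0.36 and 0.30, beside 0.29 over all genes. With acetate on average, 38 of 46 rose, beside 88.2% of all genes.

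Among 15533 other genes with a mean of at least 50 reads, those whose profile was most like that of Hilpda were named by Pearson's r of the log2 sum over the 12 libraries, each library centred on its median. They were Prtg (r = 0.99), Nfe2l3 (0.98), Frmd4b (0.98), the thioesterase gene Acot2 (0.97) and 4931413I07Rik (0.97), the symbol with 2 intervals of which 1 covers the Angptl4 start. Plin2 followed with r = 0.92, with 43 genes in all more alike to Hilpda. The 12 libraries share their treatments and factors, and Frmd4b and Nfe2l3 are on chromosome 6 as is Hilpda. Dgat1, Dgat2, G0s2 and Plin4 had r between -0.50 and -0.06.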

How the data were processed

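H3K27ac ChIP-seq libraries (2 for each of 6 treatments) carried 7.5% human chromatin as a spike-in. The authors ran nf-core/chipseq on a merged GRCh38 and mm10 (GRCm38) genome, called consensus intervals, assigned each to the nearest gene, and deposited 1 table of signal per interval: reads multiplied by a factor from each library's percentage of human reads. Dividing by that factor gave whole reads for 100% of values within 0.05. Settings of the peak caller are not given in the sources used here.

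Members and gene lists were chosen with earlier results of these data known. Intervals were summed per gene symbol. log2(signal + 1) of gene sums or intervals with a mean of at least 10 was fitted over all 12 libraries in limma 3.58.1 (R 4.3.3, intensity trend), with Benjamini-Hochberg adjustment over all features and a threshold of 0.05. Fold changes are on that log2 scale, with standard errors. Averages were taken of etomoxir (with and without acetate) and of acetate (in 3 backgrounds). Named were all members with their strongest, start-nearest and called intervals (at most 4), called genes of other lists (at most 6), and the 5 profiles most like the member that changed most. GENCODE M21 gave start sites. Alternatives were other scalings, edgeR 4.0.16 on recovered reads (58 genes called for averaged etomoxir), pseudocount 5, filters, no trend, fewer libraries, the set as a block, the largest interval, and leaving out each library. Scaling to the library total and looking up start sites by position were added after seeing the data. The fit was also run on simulated reads with known changes. These held no shift shared by the genes of a library, as in the etomoxir + SB204990 pair, so nothing is read from that run. The result for 1 marker gene is not reported here. Depth limits precision through the reads per interval, and a p-value covers library spread only.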

Additional observations from a re-analysis of the deposited data

Results flagged for a closer look

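Plin3 was singled out because etomoxir + SB204990 moved its single named interval one way without acetate and the other way with it. The log2 difference was 0.44 vs. vehicle, higher in both sets, and with acetate it was -0.42 vs. acetate, lower in both sets. The interval held 4 to 13 reads per library and was below the filter, so this difference was not tested.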

How the results depend on the processing

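Counts of members called by gene sum moved with the settings as follows. For etomoxir vs. vehicle (0 members), 1 was called with library-total scaling, a mean of at least 50, only the 4 libraries compared, the set as a replicate block, and the start-site interval. For etomoxir + acetate vs. acetate (1), it was 0 with median-of-ratios scaling, with share-and-factor scaling and without the trend, 2 with the replicate block and with the largest interval, 3 with the start-site interval, and 7 with only the libraries compared, a fit that called 14265 of 19776 genes. For the etomoxir average (2), it was 0 with median-of-ratios and share-and-factor scaling, and 1 with library-total scaling, with no filter and without the trend. Hilpda, Plin2 and Angptl4 passed with the start-site interval, and 5 members with only the libraries compared, a fit that called 11814 of 19389 genes. For etomoxir + SB204990 vs. vehicle (0), it was 1 with library-total scaling, the block and the start-site interval. For all 3 agents vs. acetate (1), it was 0 with median-of-ratios and share-and-factor scaling, no filter, no trend, only the libraries compared, and the largest interval. For the acetate average (6), it was 0 with median-of-ratios, library-total and share-and-factor scaling. The call of G0s2 was lost in further settings too, holding in 5 of 10. Leaving out 1 library moved the counts in all 6 comparisons. For etomoxir + acetate vs. acetate, the etomoxir average and etomoxir + SB204990 vs. vehicle, the highest counts came without either etomoxir + SB204990 library. Each such fit leaves 1 library in a group, so nothing is read from its counts. Over all genes, the etomoxir average called 58, against 5 with median-of-ratios, 81 with library-total (64 higher) and 0 with share-and-factor scaling, 30 with no filter, 10 without the trend, 262 with the block and 343 with the largest interval. The cause was not tested. Deviations of same-set libraries correlated at 0.67 to 0.70 among vehicle, acetate and etomoxir + SB204990, at 0.17 to 0.19 among the other groups and at -0.30 to -0.15 between both (15534 genes), so the sets were not taken as pairs. The block took the acetate average from 17167 to 17578 genes.

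Of the averaged differences, signs turned under 2 scalings. For etomoxir on average, median-of-ratios and library-total scaling gave -0.092 and -0.013 for Plin4, -0.083 and -0.0033 for G0s2, and -0.10 and -0.022 for Dgat2 sums, -0.11 and -0.026 for the G0s2 interval, -0.20 and -0.12 for the strongest and -0.12 and -0.037 for the start-site Dgat2 interval. The median of ratios alone gave -0.065 for Dgat1, as sum and interval, and -0.031, -0.078 and -0.017 for the intervals over the Plin3 start, over the Pnpla2 start and at the end of Plin4. For acetate, the same pair of scalings gave -0.072 and -0.054 for Hilpda, -0.27 and -0.25 for G0s2 and for Angptl4 sums, -0.098 and -0.080 for the Hilpda start, -0.076 and -0.058 for the interval between, -0.33 and -0.31 for G0s2, -0.22 and -0.20 for the strongest Angptl4-named interval, and -0.21 and -0.19 for the Dgat2 start. The median of ratios alone gave -0.014 upstream of Hilpda and -0.0014 over the Angptl4 start. None of these turned values passed. Single comparisons turned under other settings too: for etomoxir vs. vehicle, Dgat1 and G0s2 were at -0.16 and -0.079 with share-and-factor scaling and at -0.13 and -0.058 without vehicle set 1, and for etomoxir + SB204990 vs. vehicle Plin4 was at -0.16 with its largest interval and at -0.59 without set 2 of that pair.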

Other observations

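The intervals next to the Hilpda locus on the side of Fam71f2 and Fam71f1 had the following levels. The interval 12832 to 20148 bases past the Hilpda start gave 23.3 spike-scaled reads per kb with vehicle, 22.8 with etomoxir, 30.2 with acetate and 40.2 with etomoxir + acetate. That from 22190 bases gave 37.3, 38.9, 51.1 and 64.7. Around Angptl4, the interval 11315 to 23985 bases before its start, also assigned to 4931413I07Rik, gave 8.10 reads per kb with vehicle, 15.6 with etomoxir, 12.4 with acetate and 30.3 with etomoxir + acetate, and that from 25443 bases, assigned to Kank3, gave 49.7, 73.0, 66.6 and 108. These means of 2 libraries were not tested.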
